A study of Mus musculus with 4 samples.

Results

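Positions that were read as converted in nearly all reads, in cells with a control shRNA and in cells with an shRNA against Tdg alike, are described here. They were chosen by their levels: a position was taken when it was listed in both shRNA libraries with a level of 90% or more in each. This gave 419 positions, 26.7% of the 1567 positions that both libraries listed, out of 472220 entries in all 4 lists of the study. Because the levels with either shRNA chose these positions, those levels are given as a description, and only values from the 2 wild-type libraries are independent of the choice.

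All libraries were made from genomic DNA of E14, a mouse embryonic stem cell line, by methylation-assisted bisulfite sequencing (MAB-Seq). The control shRNA and the Tdg shRNA group had 1 reduced-representation library each, made from DNA cut with MspI, an enzyme that cleaves at the sequence CCGG. The third group was wild-type E14 DNA that had been sheared, with 2 whole-genome libraries, called replicate 1 and replicate 2 below. The labels do not say whether shRNA cells were 1 clone, how far Tdg was depleted, or whether replicates 1 and 2 are separate cultures.

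TET enzymes oxidise 5-methylcytosine in steps to 5-formylcytosine and 5-carboxylcytosine, and TDG, a DNA glycosylase, cuts the latter pair out of DNA for repair. In MAB-Seq, the CpG methyltransferase M.SssI first methylates unmodified CpG cytosines, which protects them from bisulfite along with cytosines that were already methylated or hydroxymethylated. What remains readable as thymine at a CpG is 5-formylcytosine, 5-carboxylcytosine or a base that M.SssI missed. A thymine in the genome of the cells at a cytosine of the reference is read the same way, and E14 cells and the reference genome come from different inbred mouse strains. No variant list and no genome sequence were used here, so whether these positions carry such thymines was not tested.

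Sequence was deposited for replicate 1 of the whole-genome libraries alone, as 5 bases on the plus strand. It is shown for the 12 positions that were listed in both whole-genome libraries with the highest (first 6) and lowest (last 6) level in replicate 1. There 7 positions tied at 100%, of which the first 6 in genome order are shown, and the seventh was chromosome 17 position 39984400 on the minus strand. These positions were taken to show both ends of the levels in replicate 1. Replicate 1 lists plus-strand cytosines, so for minus-strand positions the level is that of the opposite cytosine, not of the position itself. Capitals mark the CpG. On the plus strand the position is the capital C, and on the minus strand it is the cytosine opposite the capital G. Positions are counted from 1 in the mouse build mm9.
Chromosome 1, position 154895286, plus strand: caCGa
Chromosome 3, position 114567195, plus strand: ccCGg
Chromosome 5, position 138176804, plus strand: ccCGa
Chromosome 8, position 109555337, plus strand: agCGc
Chromosome 10, position 93296955, plus strand: gcCGg
Chromosome 10, position 122231284, plus strand: tgCGg
Chromosome 9, position 3032365, minus strand: caCGt
Chromosome 10, position 67559907, minus strand: agCGa
Chromosome 13, position 17787518, minus strand: cgCGg
Chromosome 13, position 17787537, minus strand: ctCGg
Chromosome 11, position 3051740, plus strand: acCGg
Chromosome 11, position 3051715, plus strand: acCGg

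The chosen positions sat at the ceiling of the scale. The level is the percentage of converted reads after the authors' background correction. Of the 419 positions, 292 (69.7%, exact 95% interval 65.0% to 74.1%) were at 100% in both libraries, 57 at 100% with control shRNA only, 29 at 100% with Tdg shRNA only, and 41 below 100% in both. The median of those below 100% was 97.8% with control shRNA (70 positions) and 96.9% with Tdg shRNA (98 positions). The level was lower with Tdg shRNA at 83 positions, higher at 44 and equal at 292. Each shRNA group was 1 library of unknown depth, so this split has no replicate check.

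**Figure D1:**
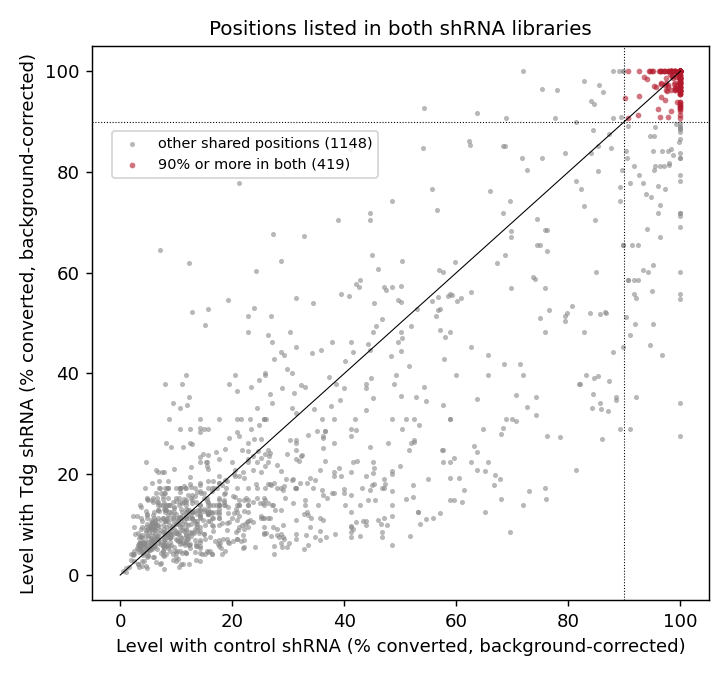
Level of each of the 1567 shared positions with control shRNA (x axis) and Tdg shRNA (y axis), in percent of reads converted after background correction. The 419 positions at 90% or more in both are in red, 292 of them lie on top of each other at 100% in both, and the dotted lines mark 90%.

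The threshold cut through few positions. The lower of the 2 levels lay between 90% and 95% at 29 chosen positions, and between 80% and 90% at 49 of the other shared positions. The chosen positions nearest to the threshold were chromosome 9 position 3032365 with 90.1% (control shRNA) and 94.6% (Tdg shRNA), chromosome 1 position 124253898 with 100% and 90.6%, and chromosome X position 154061446 with 90.6% and 90.6%. Just outside it lay chromosome 14 position 15076117 with 89.7% and 100%, chromosome X position 66723626 with 89.7% and 100%, and chromosome 5 position 18492898 with 100% and 89.7%.

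Most positions that were high in one library were listed in the other, though not all were as high there. The chosen positions were 62.6% of the 669 positions at 90% or more with control shRNA and 61.3% of the 684 with Tdg shRNA. Of the others with control shRNA, 178 were not listed with Tdg shRNA and 72 were listed there at a lower level, with a median of 76.9% and a minimum of 27.6%. Of the others with Tdg shRNA, 247 were not listed with control shRNA and 18 were listed lower, with a median of 84.3% and a minimum of 54.2%. A position not listed has no value, since coverage is unknown.

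Near fully converted positions were found on every autosome and on X. The counts ran from 5 on chromosome 19 to 37 on chromosome 7, with 33 on chromosome 6 and 30 each on chromosomes 4 and 14. As a share of the shared positions of a chromosome, they were most frequent on chromosome 6 with 41.8% (exact 95% interval 30.8% to 53.4%, 33 of 79) and chromosome 14 with 41.7% (30.2% to 53.9%, 30 of 72). The lowest shares were 11.4% (5.34% to 20.5%, 9 of 79) on chromosome 8 and 14.7% (4.95% to 31.1%, 5 of 34) on chromosome 19. The intervals of chromosomes 6 and 14 lay above that of chromosome 8, and besides these 3 only the intervals of chromosomes 7 (above) and 9 (below) left out the share over all shared positions. The value of chromosome 9 depended on windows dense in shared positions. There were 3 windows of 10 kb with 10 or more of them, 2 that adjoin on chromosome 9 (3020001 to 3040000) and 1 on chromosome 2 (98500001 to 98510000), which held 54 of the other shared positions and 1 chosen one. Without them the share on chromosome 9 was 21.6% (13.9% to 31.2%, 21 of 97), an interval that held the share over all shared positions. Intervals cover counting error only and take positions as independent, which neighbours on the same reads are not.

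**Figure D2:**
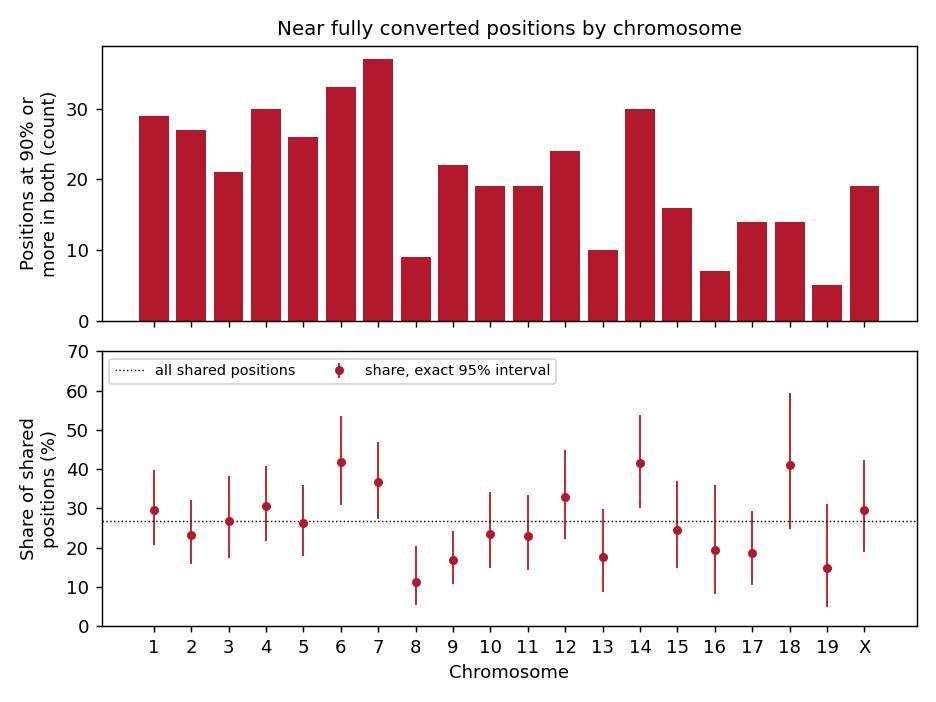
Number of near fully converted positions on each autosome and X (top, bars) and their share of the positions listed in both shRNA libraries (bottom, points with exact 95% intervals). The dotted line is the share over all shared positions, 26.7%, and the intervals of chromosomes 6, 7 and 14 lie above it while those of chromosomes 8 and 9 lie below.

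The X chromosome held 19 near fully converted positions among 64 shared ones, 29.7% (18.9% to 42.4%), against 392 of 1489 or 26.3% (24.1% to 28.6%) on autosomes. The ratio was 1.13, and its 95% interval of 0.766 to 1.66 held 1. Unplaced contigs held 8 among 14. Chromosome lengths and the number of CpGs on MspI fragments were not used here, so densities along the genome are not given.

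Along the chromosomes the positions were spread widely. They fell into 331 blocks of 1 Mb, of which 260 held 1 position, 57 held 2, 11 held 3 and 3 held 4. The fullest blocks, with 4 positions each, were chromosome 2 from 153000001 to 154000000, chromosome 6 from 130000001 to 131000000, and chromosome X from 14000001 to 15000000. On chromosomes 2 and X the 4 positions lay within 28 bp and 40 bp. On chromosome 6 they lay apart, between 130552642 and 130761037. In each of these blocks no other position was shared by the shRNA libraries. Next came blocks of 3 positions, the first of which in genome order were chromosome 1 from 172000001 to 173000000 and chromosome 7 from 4000001 to 5000000, each with 2 of the positions close together.

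Where near fully converted positions did lie close together, they lay very close. Chosen positions with gaps of at most 100 bp were joined into runs, which gave 330 positions alone and 40 runs: 33 runs of 2, 5 of 3 and 2 of 4. Alone means without another chosen position within 100 bp, and other listed positions could lie nearer. Runs held 89 positions, 21.2% (17.4% to 25.5%). Of the 396 gaps between neighbours on a chromosome, 49 were at most 45 bp and 25 at most 11 bp, while 1 lay between 100 bp and 1 kb. The median gap inside runs was 11 bp, and no run was wider than 45 bp. Among the other 1148 shared positions, 26.3% lay in runs defined in the same way.

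The longest runs were uniformly at or near 100%. On chromosome X, positions 14091156, 14091168, 14091181 and 14091196 were all at 100% in both libraries. On chromosome 2, positions 153354728, 153354730 and 153354732 were at 97.9%, 98.4% and 98.4% with control shRNA and at 100% with Tdg shRNA, and position 153354756 was at 100% in both. Runs of 3 lay on chromosome 7 from 87833740 to 87833762 (all at 100%), chromosome 11 from 118016847 to 118016879 (100% with control shRNA, 96.2% or 100% with Tdg shRNA) and chromosome 12 from 88924952 to 88924957. In the last, position 88924952 was at 100% in both libraries, and positions 88924955 and 88924957 shared 99.0% with control shRNA and 96.6% with Tdg shRNA. Equal values at such short distances can come from the same reads, which count once.

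Listed neighbours of chosen positions in the shRNA lists were of both kinds. Within 100 bp the control shRNA list held 148 neighbours with a median of 100%, of which 89 were chosen positions themselves, and the Tdg shRNA list held 141 with a median of 97.7%, again with 89 chosen. The remaining 59 and 52 had medians of 9.23% and 8.63%, but leaving out the chosen ones selects on the level, and such neighbours of the other shared positions were also low, with medians of 13.5% and 12.6%. Whole-genome replicate 1, which did not enter the choice, listed 224 CpGs within 100 bp of a chosen position, with a median of 12.3%, and 6 of them (2.68%) were at 90% or more. Around the other shared positions its median was 8.35%, with 1.35% at 90% or more.

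A smaller share of chosen than of other shared positions had a listed site nearby. The nearest other position of the control shRNA list lay within 100 bp for 30.5% (26.2% to 35.2%) of them and for 42.7% (39.8% to 45.6%) of the others. In the Tdg shRNA list the shares were 28.6% (24.4% to 33.2%) and 36.1% (33.4% to 39.0%). The median distances were 29671 bp and 370 bp in the control shRNA list, and 46939 bp and 8200 bp in the Tdg shRNA list. In whole-genome replicate 1, which did not enter the choice, a site other than the same CpG lay within 100 bp for 25.5% (21.4% to 30.0%) of chosen and 42.4% (39.5% to 45.3%) of other shared positions, and in replicate 2 for 12.4% (9.41% to 16.0%) and 27.1% (24.5% to 29.8%). None of these intervals overlapped between the groups, and no test over positions was made. Without the 3 dense windows the Tdg shRNA shares were 28.5% (24.2% to 33.1%) and 33.2% (30.4% to 36.1%), with overlapping intervals, and the medians of the other shared positions were 731 bp in the control and 13784 bp in the Tdg shRNA list. The intervals of the control shRNA list and of both whole-genome lists still did not overlap, with 40.9% (37.9% to 43.8%), 39.9% (36.9% to 42.8%) and 23.6% (21.1% to 26.2%) of the other shared positions within 100 bp.

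**Figure D3:**
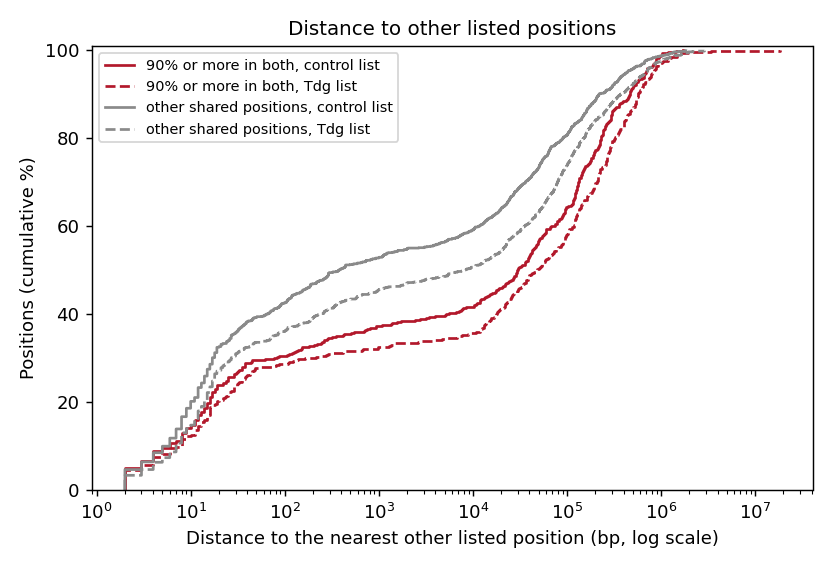
Cumulative share of positions (y axis, percent) by distance to the nearest other listed position (x axis, bp, log scale), leaving out the other strand of the same CpG. Near fully converted positions (red) reach 30.5% at 100 bp in the control shRNA list (solid) and 28.6% in the Tdg shRNA list (dashed), below the other shared positions (grey).

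The opposite strand of a near fully converted CpG was almost never listed in the shRNA libraries. Adjacent positions are the 2 cytosines of 1 CpG, and 0 of the 419 positions had their neighbour among the chosen ones or anywhere in the control shRNA list, with an exact upper limit of 0.877%. In the Tdg shRNA list 2 positions had it. Chromosome 9 position 3032365 had its partner at 12.1%, and chromosome 9 position 35112904, at 100% in both libraries, had its partner at 75.0%. Among the other shared positions 1.57% (0.932% to 2.47%) had the partner in the control shRNA list and 5.84% (4.55% to 7.35%) in the Tdg shRNA list. Outside the 3 dense windows these shares were 0.731% (0.316% to 1.44%) and 2.01% (1.26% to 3.03%), and for chosen positions 0% (0% to 0.879%) and 0.239% (0.00606% to 1.33%), so that the intervals overlapped. Whether the partner cytosine was covered is unknown.

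The strand of a position follows only from the whole-genome lists, because the shRNA files mark all positions as plus. It could be set for 111 positions, with 55 on plus and 56 on minus and no contradiction between the lists. The reference sequence sets the strand of a position, so this absence of contradiction checks the coordinates only. In 7 runs the strand was known for more than 1 position, and in each of these the positions lay on the same strand.

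Part of the near fully converted CpGs was also listed in wild-type DNA. Counting a CpG as listed when either of its cytosines was, replicate 1 listed 90 (21.5%, exact 95% interval 17.6% to 25.7%), replicate 2 listed 53 (12.6%, 9.62% to 16.2%), 32 were in both and 111 (26.5%, 22.3% to 31.0%) in at least 1. Over all 1567 shared positions the shares were 17.4% in replicate 1, 12.3% in replicate 2 and 21.1% in either. The other shared positions had 15.9% (13.9% to 18.2%) in replicate 1, 12.1% (10.3% to 14.1%) in replicate 2 and 19.1% (16.8% to 21.5%) in either, so that the intervals overlapped for replicates 1 and 2 and did not for either.

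The shares of the other shared positions depended on the 3 dense windows. Without them, the other shared positions were listed in 12% (10.1% to 14.0%) of cases in replicate 1, 7.77% (6.25% to 9.52%) in replicate 2 and 15.1% (13.0% to 17.3%) in either. Chosen positions without these windows and the contigs stayed at 21.2% (17.4% to 25.5%), 12% (8.97% to 15.5%) and 25.9% (21.7% to 30.4%). The contigs were kept among the other shared positions, so the sets were not filtered alike. The intervals then did not overlap for replicate 1 and for either library, and overlapped for replicate 2. Listing was more frequent still at positions at 90% or more with Tdg shRNA that the control list did not hold. There it was 56.7% (50.2% to 62.9%) in either library, and 41.1% (33.8% to 48.8%) without the windows and contigs. At positions at 90% or more with control shRNA that the Tdg list did not hold it was 5.06% (2.34% to 9.38%).

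The clearest contrast was in the level of wild-type DNA. At the 90 CpGs listed in replicate 1, the median level there was 65.8% (95% interval 50.2% to 93.8%), against 7.94% (4.43% to 10.6%) at the 183 other shared CpGs and 11.1% over the whole list. Outside the 3 dense windows the other shared CpGs had a median of 11.2% (7.94% to 17.5%, 131 CpGs). The level was 90% or more at 37 of the 90 (41.1%, 30.8% to 52.0%) and at 1 of the 183 (0.546%, 0.0138% to 3.01%), while 13.9% of all 273 shared CpGs listed there were that high. Of the 37, 31 were at 100%. At the other end, 12 of the 90 were at 0 and 5 more below 10%. Between these, 18 lay from 10% to 50% and 18 from 50% to 90%. Wild-type levels thus spread over the whole scale although all positions were at 90% or more with either shRNA. For 39 of the 90 the wild-type level is that of the partner cytosine on the other strand.

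High wild-type levels did not extend to positions of intermediate level in the shRNA libraries. At the 26 listed CpGs whose lower shRNA level was 50% to 90%, the median in replicate 1 was 11.8% (1.75% to 24.0%) and none was at 90% or more, which allows up to 13.2% by the exact interval. At the 29 with 20% to 50% the median was 13.3% (9.79% to 37.3%). Kept to the same base, these 2 medians were 24.0% (10.6% to 54.2%, 11 positions) and 19.4% (9.79% to 68.2%, 14 positions). The 10 CpGs that were at 90% or more with control shRNA and lower with Tdg shRNA had a median of 11.2% (0% to 35.2%), and the 4 of them listed at the same base had 19.7%. The 7 at 90% or more with control shRNA that the Tdg list did not hold had a median of 70.4% (24.5% to 100%). Positions at 90% or more in the Tdg shRNA list that the control list did not hold had a median of 76.5% (58.8% to 89.7%, 78 CpGs), close to that of the chosen CpGs, so the high wild-type level was not particular to positions high in both shRNA libraries.

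Levels in replicate 1 are those of plus-strand cytosines, which is the very base for one part of the chosen positions and its partner on the other strand for the rest. At the 51 positions listed at the same base the median was 84.1% (60.4% to 100%), 25 were at 90% or more (49.0%, 34.8% to 63.4%) and 3 at 0. At the 39 positions whose partner base was listed the median was 41.6% (9.48% to 89.7%), 12 were at 90% or more (30.8%, 17.0% to 47.6%) and 9 at 0. The intervals overlapped. Thus 12 CpGs had one strand at 90% or more in both shRNA libraries and the opposite strand at 90% or more in wild-type DNA. Other shared positions listed at the same base had a median of 10.9% (6.91% to 17.5%, 76 positions). Outside the 3 dense windows it was 17.5% (10.6% to 24.0%, 57 positions).

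Positions alone and positions in runs had different levels in replicate 1, a split that was made after the values had been seen. At the 79 CpGs with no other chosen position within 100 bp the median level in replicate 1 was 84.1% (59.4% to 100%). Of them, 37 were at 90% or more (46.8%, 35.5% to 58.4%). At the 11 CpGs in runs, which came from 7 runs, it was 11.3% (0% to 45.4%), none was at 90% or more (0% to 28.5%), and 5 were at 0. Kept to the same base, the medians were 93.9% (69.5% to 100%, 45 positions) and 28.0% (0% to 47.5%, 6 positions). Replicate 2 holds p-values and no levels, so it could not show whether levels differed there too. It listed 11.8% (8.54% to 15.8%) of positions alone and 15.7% (8.88% to 25.0%) of those in runs, and of the positions listed at the same base 25 of 33 (75.8%, 57.7% to 88.9%) and 10 of 14 (71.4%, 41.9% to 91.6%) had a p-value of 1e-12 or less. In the shRNA libraries 70.9% of positions alone and 65.2% of positions in runs were at 100% in both.

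**Figure D4:**
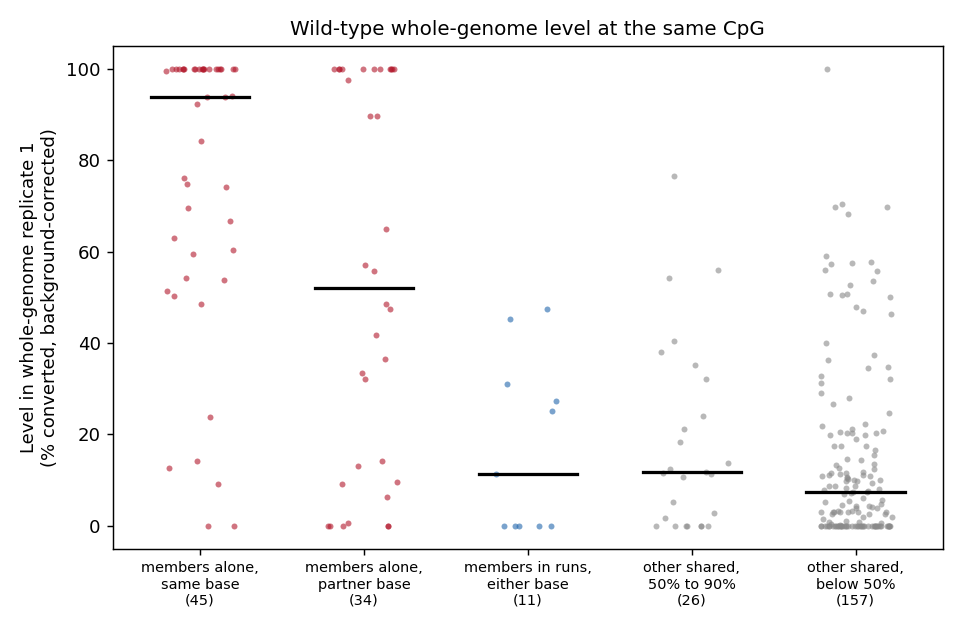
Level in whole-genome replicate 1 of wild-type cells (y axis, percent of reads converted after background correction) at CpGs listed there, with medians as bars and the number of CpGs in brackets. Near fully converted positions with no other such position within 100 bp (red) spread up to 100%, and those in runs (blue) stay below 50%. Other shared positions (grey, split by their lower shRNA level) are mostly low.

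All 37 positions with a level of 90% or more in replicate 1 were alone, with no other chosen position within 100 bp. Chromosome 3 position 114567195, chromosome 5 position 138176804 and chromosome 10 position 93296955 were at 100% in both shRNA libraries and in replicate 1 at the same base, with a deposited p-value listed as 0 in replicate 2. Chromosome 10 position 122231284 was at 100% with control shRNA, 97.7% with Tdg shRNA and 100% in replicate 1, again with a p-value listed as 0. At chromosome 1 position 154895286 and chromosome 8 position 109555337, which were at 100% in all 3 lists with levels, replicate 2 listed the partner cytosine on the other strand instead, with p-values listed as 0. At chromosome 9 position 110183820, at 100% with control shRNA, 99.8% with Tdg shRNA and 97.6% on the partner base in replicate 1, replicate 2 listed both strands with p-values of 0.

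Of the 6 positions listed in both whole-genome libraries with the lowest level in replicate 1, 4 lay in runs. On chromosome 13, positions 17787516, 17787518 and 17787537 were at 100% with either shRNA and lay on the minus strand. Replicate 2 listed all 3 there, with p-values of 5.46e-12, 5.46e-12 and 1.36e-13, and replicate 1 listed the plus-strand partners of the last pair at 0. On chromosome 11, position 3051715 was at 100% with either shRNA and at 30.9% in replicate 1, and position 3051740 was at 100% with control shRNA, 98.3% with Tdg shRNA and 25.1% in replicate 1. Both had both strands listed in replicate 2. A further run on chromosome 10 was not among the 6. Its positions 129979388 and 129979396 were at 100% with either shRNA and at 45.4% and 47.5% in replicate 1. They shared a p-value of 3.17e-13 in replicate 2. The rest of the 6 were alone. Chromosome 9 position 3032365, at 90.1% with control shRNA and 94.6% with Tdg shRNA, had its partner at 0 in replicate 1, while replicate 2 listed the position with a p-value of 0 and its partner with 15 of 104 reads converted (14.4%, 8.30% to 22.7%). Chromosome 10 position 67559907, at 98.3% and 92.0%, also had its partner at 0 in replicate 1, yet replicate 2 listed that partner with a p-value of 4.25e-08.

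Replicate 2 gave p-values in place of levels, and its reads could be recovered only where the p-value was above 1e-07. Of the 47 chosen positions listed there at the same base, 35 (74.5%, 59.7% to 86.1%) had a p-value of 1e-12 or less, 28 of them listed as 0. The share was 10.9% over all 118502 cytosines of that list, 65.9% (56.8% to 74.2%) at the other shared positions, and 50% (38.0% to 62.0%) at these outside the 3 dense windows. The p-value falls with depth as well as with level, and depth was not recovered at these positions.

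For 6 chosen positions reads were recovered at the same base, which by construction left out strongly converted positions unless reads were very few. At chromosome 7 position 112098859, 5 of 10 reads were converted (50%, exact 95% interval 18.7% to 81.3%). At chromosome 4 position 49479446 it was 6 of 17 (35.3%, 14.2% to 61.7%), and at chromosome 2 position 4188884 it was 5 of 20 (25%, 8.66% to 49.1%). All 3 were at 100% with either shRNA. Chromosome 5 position 76916039 had 3 of 11 reads (27.3%, 6.02% to 61.0%), chromosome 11 position 3051740 had 7 of 54 (13.0%, 5.37% to 24.9%), and a position on the unplaced part of Y had 4 of 12 (33.3%, 9.92% to 65.1%). Recovery at p-values above 1e-07 leaves out the most converted positions by its construction, so these 6 do not stand for the 47. That none of the 6 was near fully converted follows from how they were recovered.

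The sequence at near fully converted CpGs was rich in MspI sites. Read in the direction of the position's own strand, 24 of the 90 CpGs with a deposited sequence (26.7%, 17.9% to 37.0%) were the CpG of CCGG. This was so for 3 of the 183 other shared CpGs (1.64%, 0.339% to 4.72%) and for 10.3% (10.2% to 10.4%) of all CpGs in replicate 1. The base after the CpG was G at 53.3% (42.5% to 63.9%) of chosen and 20.2% (14.7% to 26.8%) of other shared CpGs. The base before it was C at 43.3% (32.9% to 54.2%) and 23.5% (17.6% to 30.3%). Over all CpGs in replicate 1 these shares were 32.3% for G and 29.3% for C. Both counts include the CpGs of CCGG, so they are not separate from the count of MspI sites. CCGG is its own reverse complement, so the unknown strand does not touch the count of CCGG. MspI sites form the ends of the fragments in the shRNA libraries, and end repair places unmodified cytosines there that the labels' protocol exposes to M.SssI again. The part of this step in the result was not tested.

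In wild-type DNA, which was sheared and not cut with MspI, CpGs within CCGG had a median level of 50.9% in replicate 1, with 6 of 24 at 90% or more (25%, 9.77% to 46.7%) and 4 at 0. The other 66 chosen CpGs had a median of 86.9%, with 31 at 90% or more (47.0%, 34.6% to 59.7%) and 8 at 0. The intervals overlapped. High levels in replicate 1 were thus found with and without an MspI site, and 9 of the 24 and 23 of the 66 were also listed in replicate 2.

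Most of the strongest wild-type sites were not listed in the shRNA libraries. Replicate 1 listed 6927 CpGs at 90% or more, 2.09% of its 331875. Of these, 78 were listed in at least 1 shRNA library and 37 were chosen positions. The whole list held only 90 chosen CpGs, and 41.1% of those were at 90% or more, against 2.09% of the list. The other 6849 were listed in neither shRNA library and have no value there. The control and Tdg shRNA lists held only 12895 and 8948 positions, so most of the 331875 CpGs were absent from them at any level. The share of all CpGs of replicate 1 in the shRNA lists was not counted, so the 78 cannot be set against it.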

How the data were processed

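MAB-Seq site lists of 4 libraries were used as deposited. The submitters' processing notes name the build mm9 and the tools Bismark 0.10.1 and CASAVA 1.8. How sites were called and filtered, and at what depth, is not given in the sources used here. The authors deposited a percent of converted reads per cytosine for replicate 1 and both shRNA libraries. All these percentages equalled fractions of 3 or 4 decimals with a background of 3% (replicate 1), 2.9% (control shRNA) or 3.3% (Tdg shRNA) removed. For replicate 2 the authors deposited a p-value, at most 0.00997. Binomial tails with a background of 3.8% matched 99.8% of those above 1e-07, which gave the reads (relative tolerance 1e-08, up to 2000 reads).

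Positions were matched by chromosome and start, and to CpGs by plus-strand cytosine. Shares have exact Clopper-Pearson 95% intervals, medians order-statistic intervals, and the X to autosome ratio a log-normal interval. They cover counting error only, and PCR reads (15 cycles) are not independent molecules. With 1 library a group, groups were not tested against each other. The depth of the 3 libraries with percentages is unknown. Matching was tested on simulated data.

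The chosen positions and comparisons were picked with earlier results of these data known. Positions named by coordinate are the 5 fullest 1 Mb blocks, the 5 longest runs, the 6 highest and 6 lowest in replicate 1 among those in both whole-genome libraries, and 3 on each side of the threshold. Others, and the recovered reads, were named after their values were seen. None on chromosome 18 is named. Python 3.11.15, numpy 2.4.6, pandas 2.3.3, scipy 1.17.1 and matplotlib 3.10.9 were used.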

Additional observations from a re-analysis of the deposited data

How the results depend on the processing

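Of 43 values under other settings, 37 stayed within the interval (for the count of positions, within 1.5 times) of the reported value. The share at 100% in both libraries became 74.9% with a threshold of 95% and 62.4% with 80%, as the threshold removes or adds positions below 100%. Counting only the same base, 12.2% of positions were listed in replicate 1 and 19.1% in either whole-genome library, since fewer matches are allowed. With either replicate left out, the share listed in wild-type DNA was 12.6% to 21.5%. Thresholds of 95% and 80% gave 390 and 468 positions, and the median level in replicate 1 was 68.0% and 59.9%. It was 86.9% without CpGs listed at 0. Counting each run once, chosen after seeing the data, gave 27.8% listed in either library. No paired analysis was possible because each shRNA group had 1 library and no test compared groups. The depth of both shRNA libraries and coverage of positions not listed are unknown, so absence from a list says nothing about the level.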
